A study of Mus musculus with 8 samples.

Results

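The mature lymphocyte miRNAs mmu-miR-150-5p, mmu-miR-342-3p, mmu-miR-181a-5p and mmu-miR-181b-5p, 4 of the 1881 miRNAs on the array, were measured in mouse skin. They were taken by name, as miRNAs known for high levels or regulatory roles in lymphocytes. All 8 samples were from male Ncstn flx/flx; Krt14 CreER+/- mice. The product of Ncstn, nicastrin, belongs to the γ-secretase complex that cleaves Notch receptors, and the Krt14 promoter drives the tamoxifen-activated Cre in basal keratinocytes. The NcstnΔKC group (4 arrays) first received tamoxifen at 8 weeks, orally, with a daily dose of 20 mg per kg for 5 days and repeats at intervals of 10 days. The normal group (4 arrays) had the same genotype and was given corn oil, so tamoxifen and deletion cannot be told apart. Skin was taken at 16 weeks. Deletion was keratinocyte-driven, so any lymphocytes in the tissue keep their Ncstn alleles by design. Ncstn mRNA was not measured on these arrays. The labels do not state that each sample is a different mouse, and the p-values therefore reflect only sample-to-sample spread, some of which may be technical.

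MicroRNAs are short RNAs that guide Argonaute proteins to messenger RNAs, mainly through a seed at bases 2 to 8, and lower their translation and stability. miR-150 is abundant in mature B and T cells, where it restrains the transcription factor Myb. miR-342 is processed from an intron of Evl, a gene expressed in blood cells, and the miR-181 family is best known for setting the sensitivity of the T-cell receptor in developing T cells. None of them is restricted to lymphocytes. In whole skin, fewer cells of a type and less RNA per cell cannot be told apart.

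The mature sequences of miR-342-3p and of the miR-181 5p arms are shown because the miR-181 members share a seed and differ by few bases, which bears on what each probe reads. They are from RefSeq (GRCm38.p6), with the seed in capitals. Of the 4 members, 3 matched an entry; miR-150-5p did not.
miR-342-3p: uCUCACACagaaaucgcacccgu
miR-181a-5p: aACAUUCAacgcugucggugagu
miR-181b-5p: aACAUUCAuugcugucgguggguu
miR-181c-5p: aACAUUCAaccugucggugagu
miR-181d-5p: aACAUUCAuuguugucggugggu
The 4 miR-181 sequences share the seed ACAUUCA, which no other of the 1679 mature names in that table has, and miR-342-3p has the seed CUCACAC. miR-342-3p lies at chr12:108658680-108658702 on the plus strand, within the span of Evl. miR-181a-5p and miR-181b-5p each come from 2 loci. The first lie at chr1:137966468-137966490 and chr1:137966650-137966673, within no other gene span. The second lie at chr2:38852741-38852763 and chr2:38853845-38853868, within the span of Nr6a1, all on the plus strand. miR-181c-5p and miR-181d-5p lie on the minus strand of chromosome 8, at chr8:84178924-84178945 and chr8:84178759-84178781. Mature miR-181a-5p and miR-181b-5p from the 2 loci are identical, so the arrays cannot tell the loci apart.

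Each member had 2 probes with 15 spots each per array. The longer probes for miR-181a-5p and miR-181b-5p are shown 5′ to 3′ because they pair with the same stretch of their targets, with capitals at the 2 bases where they differ.
miR-181a-5p probe A_54_P1123: acTcaccgacagcG
miR-181b-5p probe A_54_P2651: acCcaccgacagcA
Probe A_54_P1123 had 0 mismatches to miR-181a-5p and 2 each to miR-181b-5p and miR-181c-5p. Probe A_54_P2651 had 0 mismatches to miR-181b-5p, 1 to miR-181d-5p and 2 to miR-181a-5p. The shorter probes were less distinct. A_54_P1122, for miR-181a-5p, had 1 mismatch each to miR-181b-5p and miR-181c-5p. A_54_P2650, for miR-181b-5p, had 1 mismatch each to miR-181a-5p and miR-181d-5p. None of these probes covers the seed. Cross-hybridisation within the family was not tested.

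Levels are given as log2 of the processed intensity divided by each array's 75th percentile over the 301 probes detected on all 8 arrays, summed over a miRNA's probes. Detection of a probe required 50% or more of its spots to be flagged well above background, and detection of a miRNA required 1 detected probe. Values under the floor of -4.97 were set to it. Testing with limma covered the 222 miRNAs detected on every array of 1 or both groups, with Benjamini-Hochberg adjustment and a threshold of 0.05. All differences are NcstnΔKC minus normal. Between 198 and 238 miRNAs were detected per NcstnΔKC array and between 235 and 273 per normal array. All arrays were on 1 slide with the NcstnΔKC arrays in 1 row and the normal arrays in the other, which means that position on the slide and group cannot be told apart. The keratinocyte miRNAs miR-203-3p and miR-205-5p were detected on all 4 NcstnΔKC and all 4 normal arrays. Precision is limited by the number of arrays.

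Of the 4 members, miR-181b-5p alone was called, and it fell, a call that 14 of 26 alternatives ended and 2 reversed. It was detected on 0 NcstnΔKC and 4 normal arrays, so it entered the test only through the group where it was higher. miR-150-5p had a higher mean without passing the test, miR-342-3p was level and miR-181a-5p had a slightly lower mean. Of all tested miRNAs 42.8% were called, 27.9% lower and 14.9% higher, so 1 called member of 4 is no larger a share than the background. The members' median difference was -0.15, against -0.23 over all 222, and 0 of 4 members had groups that did not overlap, against 36.9% of all tested.

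miR-150-5p, the mature lymphocyte miRNA, had log2 levels of -2.77, -3.50, -3.04 and -2.73 on NcstnΔKC arrays 1 to 4, against -3.73, -4.92, -3.51 and -3.44 on normal arrays 1 to 4. The groups overlapped slightly, because NcstnΔKC 2 lay below normal 4, and normal 2 lay far below the other normal arrays. It was detected on 4 NcstnΔKC and 3 normal arrays, so it entered the test only through the group where it was higher. The means were -3.01 ± 0.35 in NcstnΔKC skin and -3.90 ± 0.69 in normal skin (SD, n = 4 each), a difference of 0.89 ± 0.34 (SE, 95% interval 0.10 to 1.67, 1.85-fold; limma adjusted p = 0.0653). The difference was therefore not called. Of 26 alternatives 6 called it higher, among them normexp (0.44, adjusted p = 0.00699), cyclic loess (1.37, adjusted p = 0.0173) and the replicate block (adjusted p = 0.0302). Without normal 2 it was 0.55 and not called. With the scanner software's own total per miRNA the sign turned, to -1.47 (adjusted p = 0.0691); that total stood in its usual ratio to the summed probe signal (within 20%) on only 2 of the 8 arrays for miR-150-5p.

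**Figure D1:**
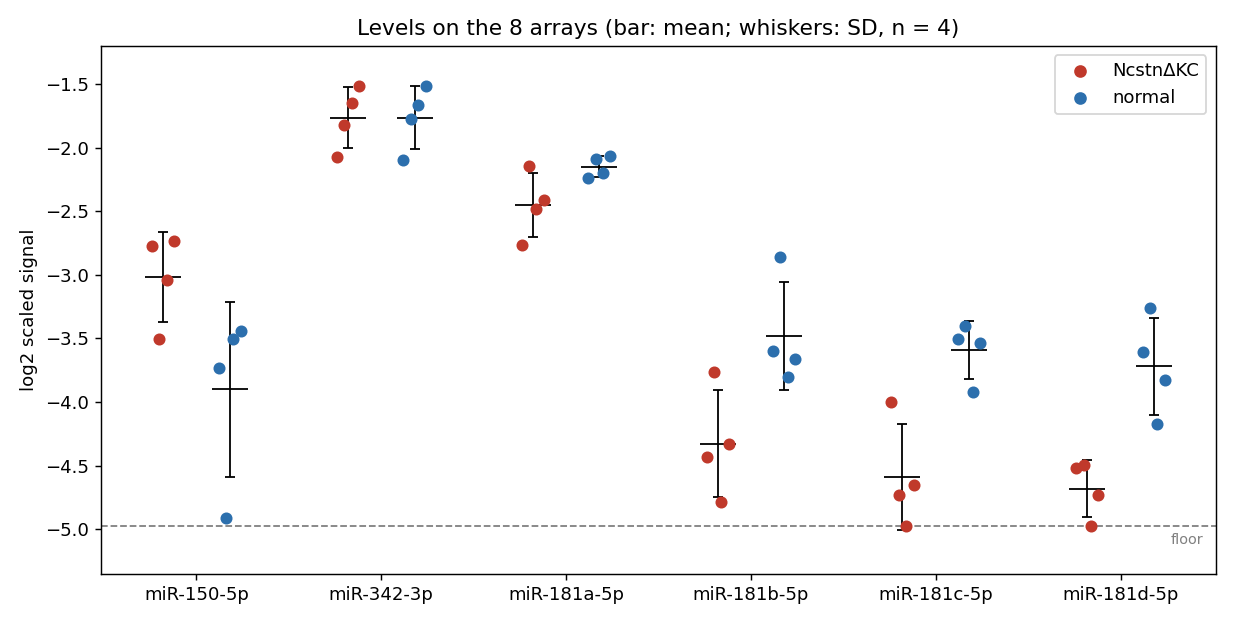
Log2 scaled signal of the 4 members and of miR-181c-5p and miR-181d-5p on each array, NcstnΔKC in red and normal in blue, with the mean as a bar and the SD as whiskers (n = 4 per group) and the floor of -4.97 dashed. NcstnΔKC and normal arrays separate fully for miR-181c-5p and miR-181d-5p, and overlap for the 4 members. Of all tested miRNAs, 23.4% separate fully with lower NcstnΔKC levels.

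miR-150-5p rests on its brighter probe. Probe A_54_P1097, mapped by the array's design to chr7:52377139-52377153 (mm9), had unscaled intensities of 131, 68.6, 104 and 127 on NcstnΔKC arrays, against 77.0, 34.6, 90.6 and 99.2 on normal arrays. Scaled, this probe differed by 0.71 ± 0.24 (SE; limma adjusted p = 0.0456 over 395 tested probes, of which 37.2% were called, 22.3% lower and 14.9% higher). The call was lost in 6 of the 8 fits that left out 1 array, and it was kept only without NcstnΔKC 2 or without normal 4. This probe was detected on 4 NcstnΔKC and 3 normal arrays, so it too was tested only through the group where it was higher. The other probe, A_54_P1096, was detected on no array, with intensities of 12.6 to 38.1 on NcstnΔKC arrays and 5.65 to 21.5 on normal arrays.

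miR-342-3p, from the Evl intron, had levels of -2.07, -1.82, -1.65 and -1.52 on NcstnΔKC arrays, against -2.10, -1.78, -1.67 and -1.51 on normal arrays. The groups covered nearly the same range. Its means were -1.76 ± 0.24 in NcstnΔKC skin and -1.76 ± 0.25 in normal skin (SD, n = 4 each), a difference of -0.00016 ± 0.18 (SE; limma adjusted p = 0.999). The 95% interval of -0.42 to 0.42 corresponds to 0.749-fold to 1.33-fold under this scaling only. The difference was -0.46 with scaling on 9 control RNAs and 0.87 with the percentile over all probes, neither called. Its 2 probes gave 0.01 and -0.01, and the sign of so small a difference turned with several settings.

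miR-181a-5p, the family member best studied in T cells, had levels of -2.76, -2.14, -2.48 and -2.42 on NcstnΔKC arrays, against -2.24, -2.09, -2.20 and -2.07 on normal arrays. NcstnΔKC 2 lay within the normal range and the other NcstnΔKC arrays below it. The means were -2.45 ± 0.25 in NcstnΔKC skin and -2.15 ± 0.08 in normal skin (SD, n = 4 each), a difference of -0.30 ± 0.16 (SE, 95% interval -0.66 to 0.06; limma adjusted p = 0.155), not called. Without scaling it was -0.56 and called (adjusted p = 0.00886), and with the 75th percentile taken over all probes it was 0.57 and not called.

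miR-181b-5p, made from the same transcripts, had levels of -4.43, -3.77, -4.78 and -4.33 on NcstnΔKC arrays, against -3.60, -2.86, -3.80 and -3.66 on normal arrays. NcstnΔKC 2 lay just inside the normal range. It was not well above background on any NcstnΔKC array and was detected on all 4 normal arrays, so its fold rests on NcstnΔKC signals near background. The means of normalized log2 values gave a 1.799-fold lower level, which is an estimate and not a lower bound. The measured means were -4.33 ± 0.42 in NcstnΔKC skin and -3.48 ± 0.42 in normal skin (SD, n = 4 each). The difference was -0.85 ± 0.27 (SE, 95% interval -1.47 to -0.22, limma adjusted p = 0.0370). Of 26 alternatives 14 ended the call, among them normexp (-0.0713), and 2 turned the sign, the percentile over all probes (0.12) and the software totals (0.15). Among them were 6 of the 8 fits that left out 1 array, with adjusted p up to 0.104; of those 8 it remained only without NcstnΔKC 2 or without normal 3. Its brighter probe alone gave -0.48 ± 0.19 (SE; limma adjusted p = 0.0689), not called.

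The relatives of the members on the array were the other arms of their hairpins and miR-181c and miR-181d, 10 in all. Of these, 8 were detected on no array, so no level can be given for them. The other 2 both have the miR-181 seed. miR-181c-5p had levels of -4.003, -4.73, -4.97 and -4.66 on NcstnΔKC arrays, against -3.51, -3.40, -3.92 and -3.54 on normal arrays, with no overlap, as for 23.4% of all tested miRNAs in that direction. It was detected on 0 NcstnΔKC and 4 normal arrays, with 1 value at the floor. miR-181c-5p therefore entered the test only through the group where it was higher, also in the fits that left out 1 array. The measured means of -4.59 and -3.59 gave a 2.0-fold lower level, which is an estimate and not a lower bound. The difference was -1.0 ± 0.23 (SE, 95% interval -1.52 to -0.48, limma adjusted p = 0.00972). This call was kept in all 8 fits that left out 1 array, but of all 26 alternatives 9 ended it, among them cyclic loess (adjusted p = 0.219), normexp (adjusted p = 0.517) and the brightest probe (adjusted p = 0.0788), and 1 turned the sign (0.0397, percentile over all probes).

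miR-181d-5p had levels of -4.52, -4.49, -4.97 and -4.73 on NcstnΔKC arrays, against -3.61, -3.26, -4.18 and -3.83 on normal arrays. The groups did not overlap, as for 23.4% of all tested miRNAs in that direction, and 1 value was at the floor. miR-181d-5p was detected on 0 NcstnΔKC and 3 normal arrays, so it was not tested.

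Unscaled intensities show how dim these signals were. Negative-control spots averaged 13.02 to 17.2 on NcstnΔKC arrays and 12.6 to 15.8 on normal arrays. miR-181a-5p probe A_54_P1123 had 135, 171, 152 and 157 on NcstnΔKC arrays, against 211, 220, 209 and 237 on normal arrays. miR-181b-5p probe A_54_P2651 had 38.7, 44.7, 26.8 and 38.3 on NcstnΔKC arrays, against 70.01, 104.5, 62.2 and 71.2 on normal arrays. All 8 probes for the miR-181 5p arms were lower on every NcstnΔKC array than on any normal array before scaling. The same held for 35.2% of the 395 tested probes and 9.67% of all 4415 probes, while 10.9% of the tested probes were higher on every NcstnΔKC array. The divisor itself ranged from 922 to 1160 on NcstnΔKC arrays and from 1215 to 1314 on normal arrays. After scaling and a floor of -4.60 for probes, 3 of the 8 still separated the groups, all among the 4 that were tested. The share of tested probes in that direction was 22.5%. Dim probes tie at that floor, so this count does not show the effect of scaling alone. Those 3 probes were detected on 0 NcstnΔKC and 4 normal arrays. They therefore entered the tested set only through the normal group, where they were higher. The bright A_54_P1123 overlapped once scaled.

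**Figure D2:**
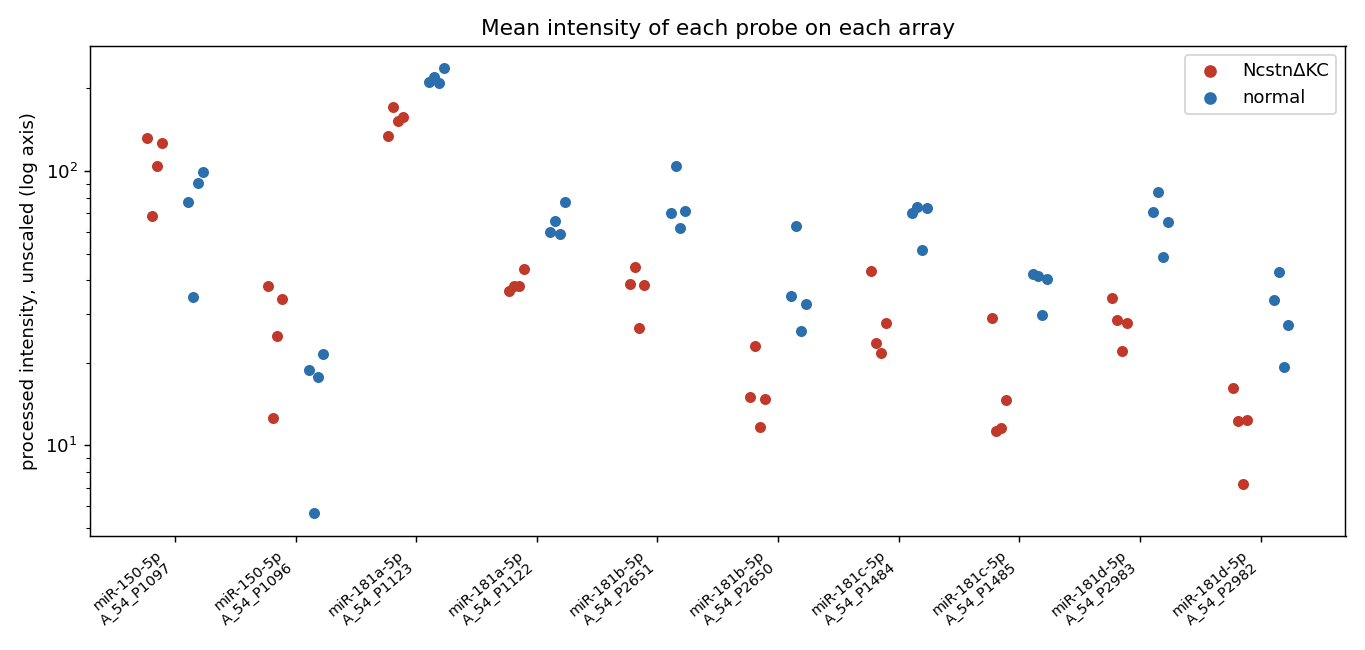
Unscaled processed intensity (log axis) of the 2 probes for miR-150-5p and the 8 probes for the miR-181 5p arms, 1 point per array, NcstnΔKC in red and normal in blue. Every miR-181 probe is lower on all NcstnΔKC arrays than on any normal array, while the miR-150-5p probes overlap.

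The members were set against each other by the difference of their log2 levels on each array, with an exact two-sided permutation test over the 70 labelings, whose smallest p is 0.0286, and adjustment over the 6 pairs. Only miR-181a-5p minus miR-181b-5p separated the groups fully. It was 1.67, 1.62, 2.30 and 1.92 on NcstnΔKC arrays, against 1.37, 0.77, 1.60 and 1.60 on normal arrays, a difference of 0.55 (exact p = 0.0286, adjusted 0.0857). miR-150-5p minus miR-181b-5p gave the largest difference of the 6, 1.73 (exact p = 0.0571, adjusted 0.0857). None of the 6 pairs passed after adjustment.

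**Figure D3:**
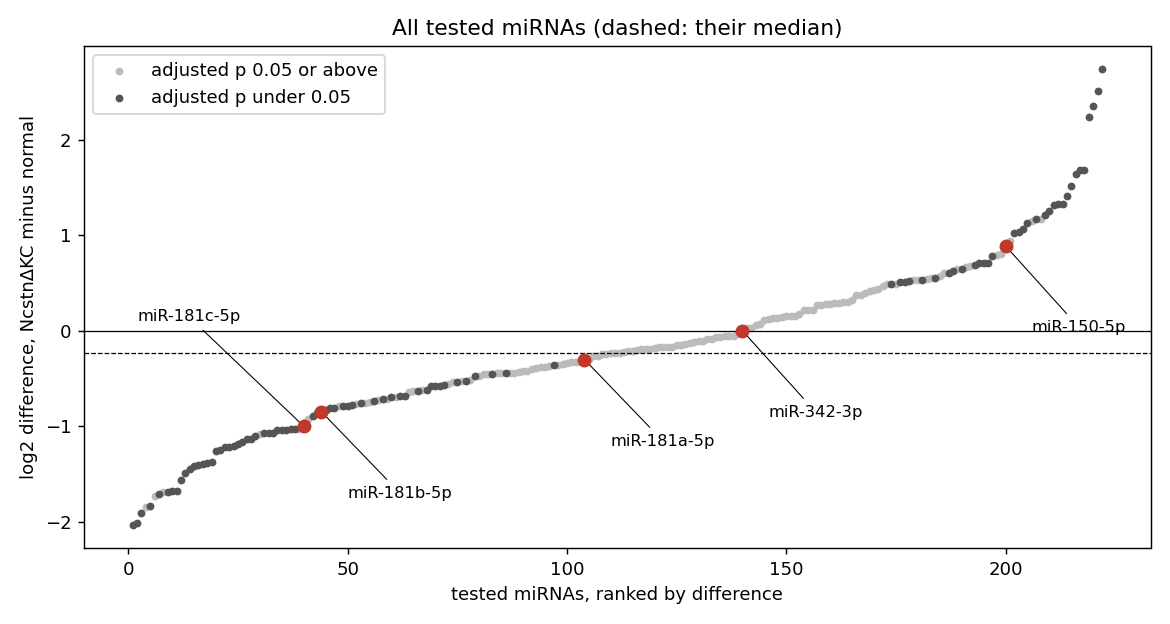
Log2 difference (NcstnΔKC minus normal) of the 222 tested miRNAs in rank order, dark where the adjusted p was under 0.05, with the 4 members and miR-181c-5p in red and the median of -0.23 dashed. miR-150-5p lies high in the order at 0.89 and miR-181b-5p low at -0.85.

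Other scalings moved the median of all tested miRNAs, which was -0.23 as reported and 0.64 where the percentile was taken over all probes. It was -0.70 where 9 control RNAs were used and -0.54 with only the 4 of them named dmr. Dividing each array by another factor moves nearly all miRNAs alike, so a distance from that median changes only through the floor or under other kinds of setting. With the percentile over all probes the distance was 0.94 for miR-150-5p and -0.52 for miR-181b-5p. miR-150-5p lay 1.12 above the median as reported, 1.42 above it with cyclic loess, 1.03 with quantile normalization and 0.51 with normexp, and its distance was -1.23 with the software totals. miR-181b-5p had a distance of -0.61 as reported, -0.51 with quantile normalization, -0.18 with cyclic loess, -0.0058 with normexp and 0.39 with the software totals.

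**Figure D4:**
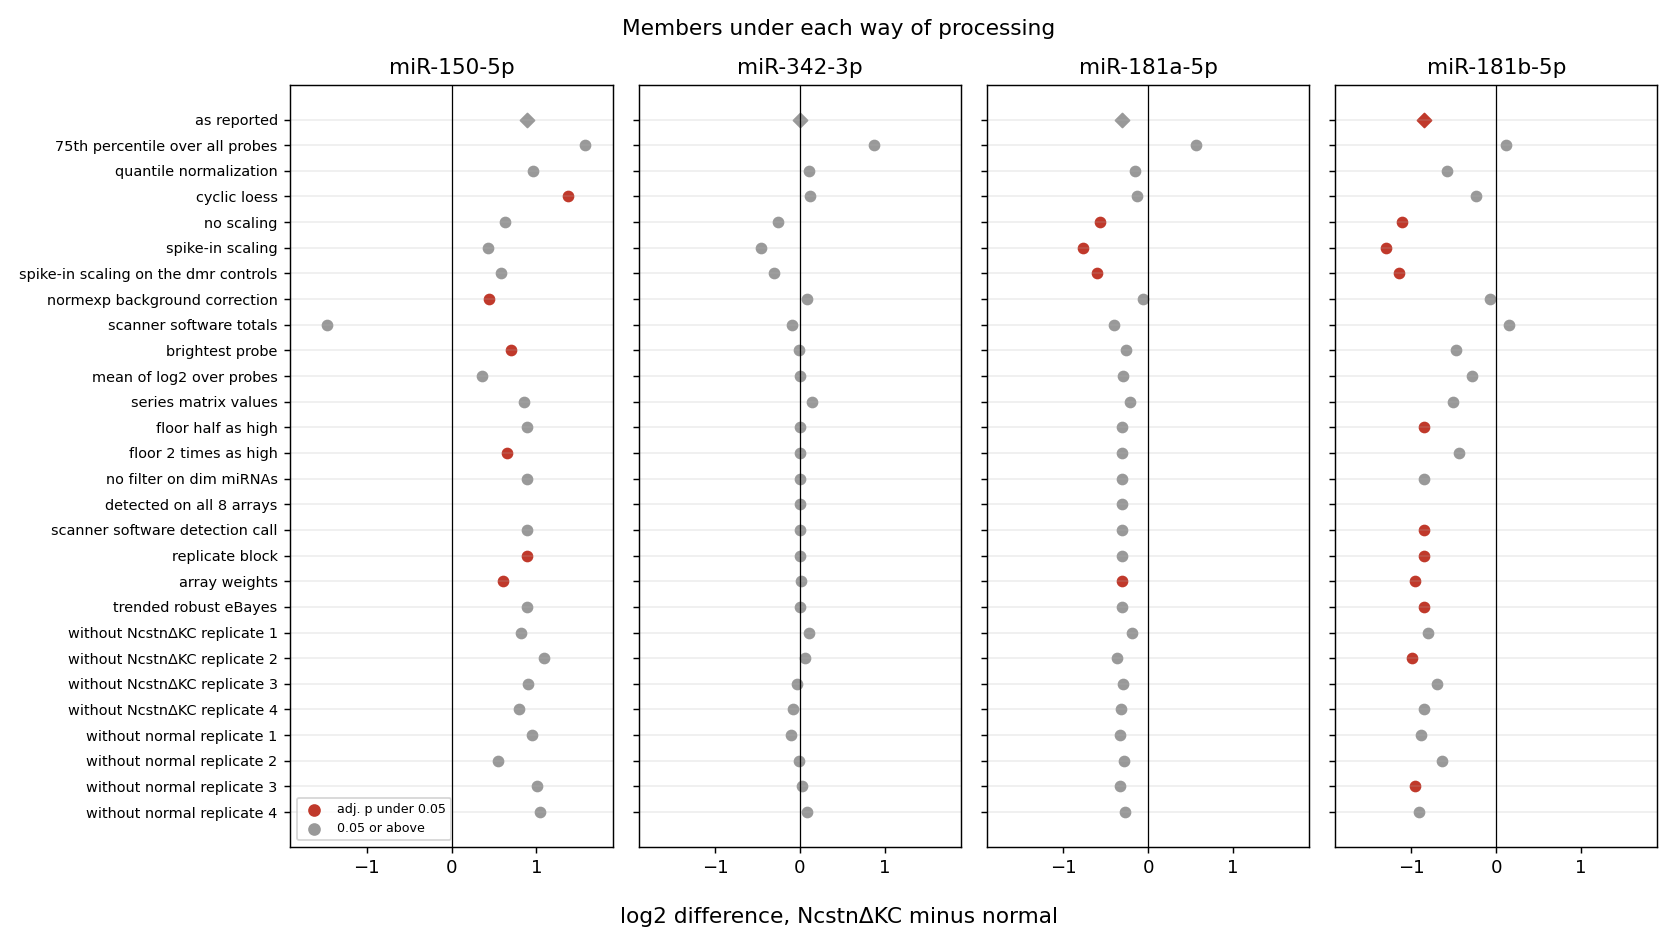
Log2 difference (NcstnΔKC minus normal) of each member under each way of processing, red where the adjusted p was under 0.05, with the reported value as a diamond. miR-150-5p is above 0 in all but the software totals, and miR-181b-5p is below 0 in all but the software totals and the percentile over all probes.

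Among other miRNAs known from leukocytes, 4 of 6 tested rose and 0 fell, with a median difference of 1.39 against -0.23 over all tested, of which 14.9% were called higher. Over 27 alternatives 0 to 6 of the list were called, 0 of them with no filter on dim miRNAs. miR-511-3p, hosted by the macrophage mannose receptor gene, rose by 2.35 ± 0.36 (SE; limma adjusted p = 0.00238). miR-146b-5p, an NF-κB-responsive miRNA, rose by 1.64, and miR-142a-3p, which is broadly expressed in blood cells, rose by 1.52. miR-155-5p, which is induced on immune activation, rose by 1.26. It was detected on 4 NcstnΔKC and 3 normal arrays, so miR-155-5p entered the test only through the group where it was higher. miR-223-3p, a myeloid miRNA, differed by 1.15 (limma adjusted p = 0.0644) and miR-146a-5p by -1.08 (adjusted p = 0.131), neither called. Of 21 tested lymphocyte regulators, a list of miRNAs that act in lymphocytes and in many other cells, 8 rose, 1 fell and 12 were not called, with a median of 0.07, against 14.9% higher and 27.9% lower over all tested. That split moved with the scaling, to 7 higher and 5 lower without scaling and 5 and 9 where 9 control RNAs were used. It was 5 and 5 where the dmr controls alone were used, and 3 and 0 where the percentile was taken over all probes. Of the 8 that rose, miR-18a-5p and miR-19a-3p were detected on 4 NcstnΔKC arrays but on only 1 and 2 normal arrays. Like miR-155-5p, they entered the test only through the group where they were higher, which limits what the count shows. miR-21a-5p rose by 2.51, miR-20a-5p by 1.13 and miR-19b-3p by 1.03. These lists share miR-155-5p and miR-146a-5p.

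Profile likeness was the root mean square difference of mean-centred log2 levels over the 8 arrays, which share a slide. The nearest to miR-150-5p were miR-29b-3p (0.444), miR-142a-3p (0.449) and miR-15b-5p (0.450), against a median of 0.835 over all tested miRNAs. miR-342-3p was nearest to miR-331-3p (0.089) and miR-181a-5p to miR-34a-5p (0.062). miR-181b-5p was nearest to miR-3072-5p (0.252). These neighbours were not stable: of the 3 nearest to miR-150-5p, 0 or 1 were kept in 7 of 18 alternatives, and the same held in 4 of 18 for miR-181b-5p, 3 of 19 for miR-181a-5p and 2 of 19 for miR-342-3p.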

How the data were processed

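Cy3-labelled total RNA was hybridised to 1-colour Agilent miRNA arrays. Per the file headers, Feature Extraction 10.7.1.1 gave the deposited processed intensity of each spot after background subtraction and spatial detrending, with no normalization between arrays. The deposited series matrix holds log2 values; their normalization: not given in the sources used here. Each array has 58594 spots, of which 56430 belong to 4415 miRNA probes. Control and outlier spots were left out, and 0 spots were saturated. Array numbers come from the sample titles. Same-numbered arrays correlated at -0.44, 0.20, -0.26 and -0.23 in their deviations, so the numbers were not used as pairs. Groups were compared with limma 3.58.1 (lmFit and eBayes) in R 4.3.3. The limma step was tested on simulated data. The members, lists and tests were chosen with earlier results of these data known. Named were the 4 members, their relatives, the tested members of the other leukocyte and lymphocyte regulator lists (up to 4 with the smallest p each; miR-223-3p and miR-146a-5p were named after their values were seen) and the nearest profiles. Alternatives covered scaling, background correction, probe summary, floor, filter, the model and leaving out each array. Spike-in scaling used 9 control RNAs, and the sources used here do not say which of them are spike-ins. Scaling on the 4 of them named dmr was added after the values with all 9 were seen. Probe positions are mm9, per the file headers.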

Additional observations from a re-analysis of the deposited data

How the results depend on the processing

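Results were recomputed under 19 other settings and 8 that leave out 1 array. The cause of the changes below was not tested unless stated. miR-150-5p was called with cyclic loess (1.37), normexp (0.44), the brightest probe (0.70), a floor 2 times as high (0.65), the replicate block (0.89, adjusted p = 0.0302) and array weights (0.61), and reversed with the software totals (-1.47). The software totals depart from the summed probe signals on some arrays for 76 of 222 tested miRNAs, and they also reversed miR-155-5p (-1.12). miR-342-3p, at -0.00016, turned sign with the percentile over all probes (0.87), quantile normalization (0.11), cyclic loess (0.12), normexp (0.0818), the mean of log2 over probes (0.0020), the series matrix (0.14) and array weights (0.0194). miR-181a-5p was called with no scaling (-0.56), scaling on 9 control RNAs (-0.76), on the 4 dmr controls, chosen after seeing the data (-0.61), and array weights (-0.30). It reversed with the percentile over all probes (0.57). miR-181b-5p lost its call with quantile normalization (-0.58), cyclic loess (-0.23), normexp (-0.0713), the brightest probe (-0.48), the mean of log2 over probes (-0.28), the series matrix (-0.51), a floor 2 times as high (-0.44) and no filter (-0.85), where more miRNAs were tested, and reversed with the percentile over all probes (0.12) and the software totals (0.15). With that percentile, near background in intensity, miR-181c-5p was 0.0397. Under the software totals, miR-150-5p reversed against miR-342-3p (-1.38), miR-181a-5p (-1.07) and miR-181b-5p (-1.62), and miR-181b-5p against miR-342-3p (-0.24) and miR-181a-5p (-0.55); the last was -0.0075 with the mean of log2 over probes. Probes A_54_P1122 (0.55), A_54_P1123 (0.61), A_54_P2574 (0.86) and A_54_P2651 (0.29) reversed with the percentile over all probes, A_54_P1122 (0.0112) and A_54_P2574 (0.0630) with normexp, and A_54_P2573 (-0.25) with no scaling.

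The count of called miRNAs, 95 (33 higher, 62 lower), was 12 with the percentile over all probes, 52 with the software totals, 19 with no filter, 61 with detection on all 8 arrays and 149 with array weights, and 58 to 97 on leaving out 1 array, with the lowest without NcstnΔKC 3. The split was 36 higher and 32 lower with quantile normalization, 41 and 30 with cyclic loess, 36 and 28 with normexp and 36 and 36 with the series matrix. It was 24 and 101 with no scaling, 17 and 124 with 9 control RNAs and 18 and 91 with the dmr controls. Leaving out 1 array gave 0.55 to 1.09 for miR-150-5p, -0.11 to 0.11 for miR-342-3p, -0.37 to -0.19 for miR-181a-5p and -0.997 to -0.641 for miR-181b-5p. For the probes it gave -0.12 to 0.11 (A_54_P2574) and -0.0888 to 0.118 (A_54_P2573). Detection on all 8 arrays left miR-150-5p, miR-181b-5p and miR-181c-5p untested. The replicate block changed no other member's call. Signals near background limit miR-181b-5p, miR-181c-5p and miR-181d-5p.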

Other observations

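Markers of other cell types were counted in the same fit. Of 7 keratinocyte miRNAs tested, 0 rose and 4 fell (miR-203-3p by 0.68, miR-200a-3p by 0.74, miR-200b-3p by 0.58 and miR-429-3p by 0.81 on the log2 scale), against 27.9% called lower over all tested miRNAs. The other 3 had higher means in NcstnΔKC skin without being called: miR-205-5p differed by 0.47 (limma adjusted p = 0.0518), miR-141-3p by 0.30 and miR-200c-3p by 0.12. Of 4 striated muscle miRNAs tested, 1 fell, miR-1a-3p, which differed by -1.83 ± 0.63 (SE, limma adjusted p = 0.0451), with groups that overlapped. The other 3 had lower means in NcstnΔKC skin without being called. miR-133a-3p differed by -1.73 (limma adjusted p = 0.0518), miR-133b-3p by -1.69 (adjusted p = 0.0557) and miR-206-3p by -1.03 (adjusted p = 0.283). Of 2 red blood cell miRNAs tested, miR-486a-5p fell, with a difference of -1.91, and miR-451a differed by 0.53 without being called. The 1 endothelial miRNA tested, miR-126a-3p, differed by 0.15 and was not called. Of 2 neural miRNAs tested, miR-128-3p fell, with a difference of -0.90. Both miR-486a-5p and miR-128-3p were detected on 1 NcstnΔKC and 4 normal arrays, with groups that overlapped. They entered the test only through the normal group, where they were higher. The part of these cell types in the members' values was not tested.

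Where other settings admitted miR-181d-5p to the test, it differed by -1.01 with the scanner software's detection call (limma adjusted p = 0.0123 over 264 miRNAs) and by -1.13 without normal 3 (adjusted p = 0.00978). Normal 3 had its lowest normal level, -4.18, and leaving that array out admitted it through the normal group alone. That p-value therefore cannot stand as a test of the difference. The software totals of miR-181d-5p were 22.6, 2.97, 2.94 and 2.82 on NcstnΔKC arrays 1 to 4, against 21.3 to 37.8 on normal arrays. Under the software's detection call it may likewise have been admitted through the normal group alone. The p-value from that setting is therefore not read as a test either. With no filter on dim miRNAs miR-181d-5p differed by -0.96 (limma adjusted p = 0.152 over 1881 miRNAs).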
